A study of Mus musculus with 12 samples.

Results

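The difference between genotypes in the transcript response to starvation in EBSS was measured as an interaction. The interaction is the change with EBSS in Vps15KO cells minus the change with EBSS in WT cells. All 12 of the 12 RNA-seq libraries of the series enter it, 3 in each of 4 groups, and each of the 14279 genes tested has a value. The cells were mouse embryonic fibroblasts, all of them with floxed Vps15 alleles (Vps15f/f). WT cells had received adeno-GFP and Vps15KO cells adeno-CRE, the recombinase that cuts out floxed DNA, 5 days before sampling. Their libraries carry the names pLEX_GFP and pLEX_CRE, with no word on what pLEX means. One group of each genotype stayed in basal medium, which was high glucose DMEM (4.5 g/L) with 10% serum. The other was placed for 2 h in EBSS, a salt solution with no amino acids. EBSS also lacks serum, and its glucose level is not given here. Loss of amino acids, loss of serum and any other difference between the media, glucose among them, cannot be told apart. No group had Cre without floxed Vps15, so effects of Cre and of Vps15 loss cannot be told apart either.

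Pik3r4 encodes Vps15, which holds together and regulates class 3 PI3K. This lipid kinase makes the phosphatidylinositol 3-phosphate used in autophagy and endosome sorting. Cells that lose amino acids and growth factors normally shut down mTORC1 and AKT signaling. FOXO and MiT/TFE transcription factors then enter the nucleus and raise catabolic and lysosomal genes, while uncharged tRNA raises ATF4. Immediate early genes such as Egr1 and Nr4a1 are switched on within minutes by growth factors or stress, through ERK, SRF and CREB, and growth factor withdrawal normally lets them fall.

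Libraries held 21278921 to 21698584 reads in genes. In pairwise comparisons of replicates, WT basal replicate 2 (chi-square per gene 22.1 and 21.0, against 3.24 between the other replicates of its group) and WT EBSS replicate 1 (8.45 and 12.2, against 3.92) stood apart. Both are in the WT arm of the interaction, so the main counts are given below with and without them. The targeted gene was lower where the labels say it should be. Pik3r4 had 864, 879 and 884 normalized counts in the WT basal libraries and 959, 891 and 834 in WT EBSS. It had 633, 699.8 and 640.3 in Vps15KO basal and 623, 602 and 672 in Vps15KO EBSS libraries, below every WT library of the same medium. Its response to EBSS did not pass the test of a difference (interaction -0.08 ± 0.10, adjusted p = 0.62). These counts cover the whole gene, and the labels do not give the floxed exons, so they do not measure excision. Fibroblast markers summed to 437900 to 526800 normalized counts in WT and 210600 to 240300 in Vps15KO libraries, with Thy1 at 0 to 3.18. Epithelial and endothelial markers summed to at most 139.6 in any library. Muscle and neural markers summed to 2693 to 3597 in WT and 1637 to 2117 in Vps15KO libraries. Of these, Tnnt3 had 684 to 2534, Map2 420 to 675 and Sox2 356 to 898 normalized counts, while Myog was at 0. Leukocyte markers, nearly all of them Cd68 reads, summed to 803.9 to 902.9 in WT and 2639 to 3803 in Vps15KO libraries. Ptprc stayed at or under 1.98 and Cd3e was at 0 in all 12. Of 11 fibroblast markers tested, Pdgfra alone was called in the interaction. The part of these markers in the results below was not tested.

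The response to EBSS differed between genotypes for 2540 of 14279 genes (17.8%) at adjusted p under 0.05. Of these, 1363 had a higher change in Vps15KO than in WT (9.55% of genes tested) and 1177 a lower one (8.24%). Over all genes tested the median interaction was close to 0, with 5th and 95th percentiles of -0.47 and 0.52. All changes are on the log2 scale of the deposited values, and errors written after ± beside an interaction are standard errors of the fit. Most differences were of moderate size, with a median size of 0.49 among called genes. An interaction of at least 1 in size was reached by 118 genes, 65 higher and 53 lower. The EBSS change itself was called for 62.7% of genes in WT cells (31.4% higher and 31.3% lower). In Vps15KO cells it was called for 52.0% (25.9% higher and 26.1% lower). The genotypes differed for 58.5% of genes in basal medium and 57.2% in EBSS.

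Called genes were sorted by what EBSS did in each genotype. The largest class was blunted, with 1714 genes (67.5% of those called): the WT change was called, and in Vps15KO cells it was smaller or not called. It held 884 WT rises and 830 WT falls, with a median WT change of 0.70 and -0.69 and a median Vps15KO change of 0.20 and -0.18. In 898 of the 1714 no EBSS change was called in Vps15KO cells. A further 384 genes (15.1%) were gained, that is called in Vps15KO and not in WT cells. Another 175 (6.89%) were reversed, called in both with opposite signs. The remaining classes were 263 amplified genes (10.4%), which changed in the same direction and further in Vps15KO, and 4 genes with a called change in neither genotype. Without the 2 libraries that stand apart, 3158 genes were called, 1813 blunted, 656 gained, 249 reversed and 406 amplified.

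**Figure D1:**
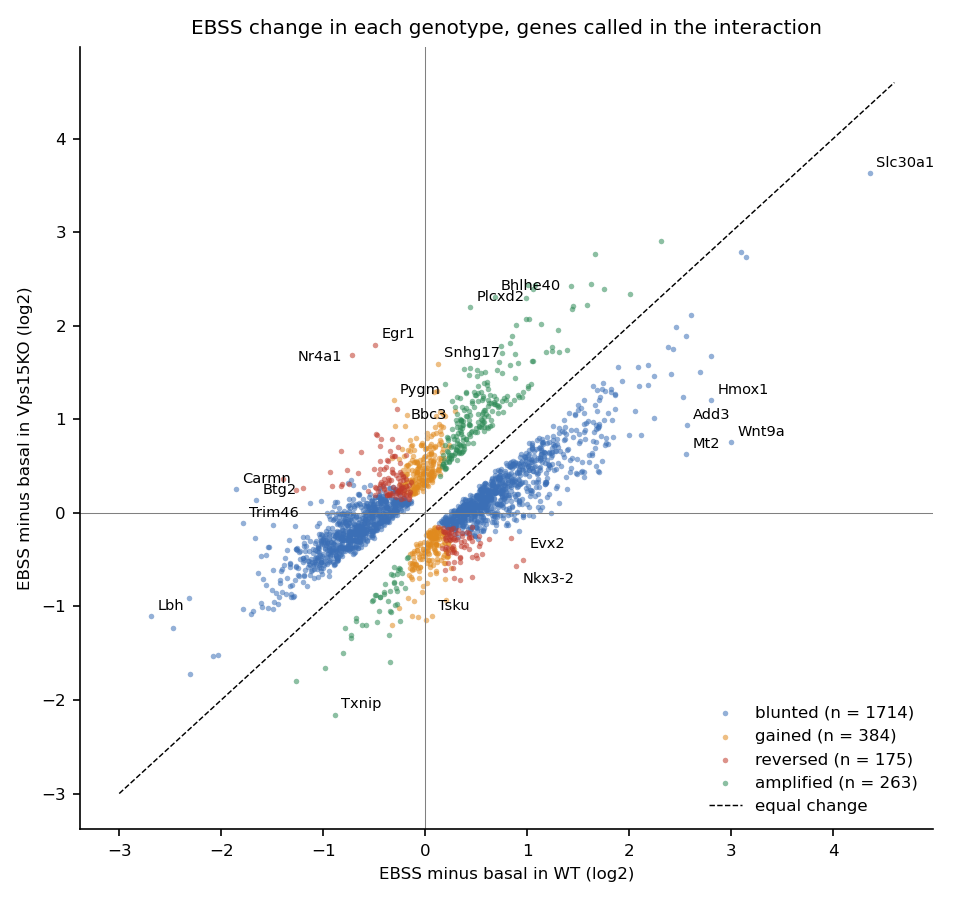
Change with EBSS in WT (horizontal axis, log2) against the change in Vps15KO (vertical axis, log2) for genes called in the interaction, 1 point per gene, colored by class, with a dashed line of equal change. Blunted genes (1714) lie between the dashed line and the horizontal axis or just across it, amplified genes (263) lie beyond the line, and reversed genes such as Nr4a1 and Egr1 lie at the upper left and others at the lower right.

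The start of the response already differed for many blunted genes. For 987 of the 1714, the Vps15KO basal level was called as shifted from WT in the direction that EBSS moved WT cells, and for 267 it was shifted away. In basal medium alone the genotypes differed for 545 of the blunted genes, in EBSS alone for 445, in both media for 709 and in neither for 15. Among all genes tested the genotypes differed in basal medium for 58.5%, and shifts toward and away were not counted over all genes. The WT basal libraries enter both the basal difference and the WT EBSS change, so spread in them alone favors a shift toward. The basal difference is also a term of the interaction, so these counts describe the classes and are not independent of them.

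Among blunted rises, Wnt9a, a secreted Wnt ligand, had the largest interaction. Normalized counts of Wnt9a were 96.2, 70.9 and 90.0 in WT basal and 784, 862 and 963 in WT EBSS libraries, and 105, 89.2 and 96.1 in Vps15KO basal and 175, 164 and 208 in Vps15KO EBSS libraries. The genotypes overlapped in basal medium, and after EBSS every Vps15KO library was below every WT library. The change was 3.00 in WT and 0.76 in Vps15KO (interaction -2.24 ± 0.15, adjusted p = 3.57e-08). Add3, which encodes a membrane skeleton adducin, had 1147, 789 and 1068 in WT basal, 6505, 5839 and 5628 in WT EBSS, 1187, 1133 and 1136 in Vps15KO basal and 2400.2, 2199 and 2109.9 in Vps15KO EBSS libraries (interaction -1.62 ± 0.14, adjusted p = 4.63e-07). Its basal libraries overlapped between genotypes and its EBSS libraries did not. WT basal replicate 2 was the lowest library for Add3 (interaction -1.41 without both libraries that stand apart). Hlf, a clock-controlled transcription factor, had EBSS changes of 2.53 in WT and 1.24 in Vps15KO. The imprinted gene Peg10 had EBSS changes of 2.11 and 0.84.

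Heme oxygenase (Hmox1) was blunted in another way. Its normalized counts were 1668, 1625 and 1655 in WT basal and 11194, 11806 and 12040 in WT EBSS libraries. In Vps15KO they were 5382, 5450.5 and 5388 in basal medium and 13282, 12000 and 12236 in EBSS. The genotypes reached overlapping levels in EBSS, and Vps15KO libraries started above every WT library (basal difference 1.70, adjusted p = 1.48e-13; interaction -1.60 ± 0.08, adjusted p = 8.83e-10). Of 22 targets of NRF2, the factor that raises antioxidant genes, 1 was called higher and 10 lower in the interaction. That is 50%, against 17.8% of all genes, with a median of -0.31. In basal medium 20 of the 22 were already higher in Vps15KO (background 29.3%). Gclm, a subunit of the enzyme that starts glutathione synthesis, rose by 1.28 in WT and 0.27 in Vps15KO (interaction -1.01 ± 0.11). Sqstm1, the autophagy receptor p62, rose by 1.53 in WT and 0.45 in Vps15KO, from a basal level of 18105 ± 350.4 in WT and 44427 ± 3376 in Vps15KO (mean ± SD, n = 3).

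The metallothioneins Mt1 and Mt2, small cysteine-rich proteins that bind zinc and copper, rose with EBSS far more in WT cells. Their genes lie side by side (chr8:94172618-94173567 and chr8:94178883-94180327, mm10). A window of 300 bases, from 250 before to 50 after a start that RefSeq lists, is shown for each because both carry several copies of the core of the metal response element, the site of the zinc-sensing factor MTF1. Capitals mark TGCACNC or TGCGCNC on either strand. The sequences are RefSeq promoters of build GRCm38.p6, at chr8:94172368-94172667 and chr8:94178839-94179138, both on the plus strand. The start used for Mt1 lies within the gene, so most of its window is inside the gene, while that of Mt2 is the gene's first base.
Mt2: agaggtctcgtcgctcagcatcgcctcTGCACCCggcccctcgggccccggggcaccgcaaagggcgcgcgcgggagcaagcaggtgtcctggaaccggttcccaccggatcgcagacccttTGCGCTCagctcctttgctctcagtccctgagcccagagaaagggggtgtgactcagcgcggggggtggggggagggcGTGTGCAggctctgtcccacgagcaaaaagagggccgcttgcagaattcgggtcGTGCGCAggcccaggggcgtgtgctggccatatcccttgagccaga
Mt1: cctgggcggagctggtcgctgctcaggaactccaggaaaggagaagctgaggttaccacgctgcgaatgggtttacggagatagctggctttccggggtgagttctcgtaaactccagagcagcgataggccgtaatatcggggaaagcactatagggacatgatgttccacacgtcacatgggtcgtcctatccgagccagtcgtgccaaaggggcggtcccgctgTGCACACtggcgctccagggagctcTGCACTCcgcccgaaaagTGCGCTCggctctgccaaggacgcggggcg
The core was found 4 times in the Mt2 window and 3 times in that of Mt1. Such a match was common, at 35.6% of the 10879 promoters of genes tested, and 39.6% of 677 promoters of blunted rises held one.

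Mt2 had 599, 741 and 709.8 normalized counts in WT basal and 4789.5, 3779 and 3939 in WT EBSS libraries, 1652, 1439.8 and 1567 in Vps15KO basal and 2462, 2374 and 2382 in Vps15KO EBSS libraries. In basal medium Vps15KO was above WT in every library, and after EBSS it was below WT in every library. The change was 2.56 in WT and 0.62 in Vps15KO (interaction -1.93 ± 0.12, adjusted p = 1.38e-08), and that of Mt1 was 1.70 and 0.44 (interaction -1.26 ± 0.14). Metallothioneins are near copies of each other, and the counting may have divided their reads unevenly. Slc30a1, the zinc exporter of the plasma membrane, had the largest EBSS rise in each genotype among the 2540 called genes. It went from 35.1, 40.2 and 45.0 to 1471, 1268 and 1212 normalized counts in WT and from 45.9, 40.2 and 52.0 to 947, 826 and 801 in Vps15KO. Its rise was 4.36 in WT and 3.63 in Vps15KO (interaction -0.73 ± 0.14, adjusted p = 0.00152), and the genotypes overlapped in basal medium only. Of 14 metallothionein and zinc carrier genes tested, 4 were called lower and 2 higher (42.9%).

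FOXO targets, which insulin signaling holds down, were among the lists with the most called members. Of 23 tested, 4 were called higher and 13 lower (73.9%, against 17.8% of all genes), with a median interaction of -0.45, and 10 were blunted rises. Gadd45a, a stress and growth arrest gene, had EBSS changes of 2.00 in WT and 0.83 in Vps15KO, and Pik3ip1, an inhibitor of class 1 PI3K, of 0.89 and 0.29. Normalized counts of Pik3ip1 were 1963, 2028 and 1937 in WT basal, 3797, 3552 and 3707 in WT EBSS, 1478, 1539.8 and 1618 in Vps15KO basal and 1870.2, 1957 and 1871 in Vps15KO EBSS libraries. The Vps15KO EBSS libraries overlapped the WT basal libraries, and all WT EBSS libraries lay above them. Sesn3, Ccng2, Cat, Sod2 and Pdk4 were blunted as well, each with a smaller change in Vps15KO. The list was not uniform: Irs2 had EBSS changes of 0.91 in WT and 1.60 in Vps15KO, and was amplified, as was the atrophy gene Trim63 (interaction 0.95). Fbxo32, the other classical atrophy ligase, rose by 3.10 in WT and 2.79 in Vps15KO. Cdkn1b, the cell cycle inhibitor p27, was reversed, with 0.54 in WT and -0.33 in Vps15KO.

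The BH3-only genes Bmf and Bcl2l11, which promote apoptosis, were blunted rises. Bmf had 2199.6, 2275 and 2265 normalized counts in WT basal and 5332, 5117 and 5041 in WT EBSS libraries, and 807, 712 and 692 in Vps15KO basal and 789.6, 848 and 848 in Vps15KO EBSS libraries. Its EBSS change was 1.19 in WT and 0.17 in Vps15KO, where the basal level was already lower (interaction -1.02 ± 0.09, adjusted p = 4.85e-07). Bcl2l11, which encodes BIM, had EBSS changes of 1.02 in WT and -0.02 in Vps15KO (the latter not called). Of 12 BCL2 family genes tested, 3 were called lower and 2 higher (41.7%).

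Genes of lipid metabolism followed. Of 13 fatty acid synthesis genes, 7 were called lower in the interaction and none higher (53.8%, against 17.8% of all genes, median -0.25). Acsl3, which activates fatty acids, had 539, 441 and 619 normalized counts in WT basal and 1828, 1715 and 1690.3 in WT EBSS libraries, and 1046, 1074 and 1202 in Vps15KO basal and 1667, 1578 and 1500.4 in Vps15KO EBSS libraries. Vps15KO libraries were higher in basal medium, and after EBSS all were below the lowest WT library, a difference that was not called (interaction -1.17 ± 0.13, adjusted p = 8.19e-06). Lpin1, a phosphatidate phosphatase, had EBSS changes of 0.87 in WT and -0.06 in Vps15KO (the latter not called), and the desaturase Scd1 of 0.55 and -0.04 (the latter not called). Of 20 genes of fatty acid oxidation and PPAR targets, 8 were called lower and none higher (40%, median -0.27). Cpt1a, which admits fatty acids into mitochondria, rose by 1.72 in WT and 1.24 in Vps15KO. The hormone-sensitive lipase Lipe was reversed (0.49 in WT, -0.45 in Vps15KO). Of 25 cholesterol genes 2 were higher and 4 lower (24%), a share nearer to that of all genes than those of the other lipid lists. Insig1, the sterol-sensing retention protein, was called lower, at 1.56 in WT and 0.44 in Vps15KO. In basal medium 23 of the 25 cholesterol genes were higher in Vps15KO (background 29.3%).

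Among 17 amino acid transporters, 2 were called higher and 6 lower (47.1%). Slc43a2, a carrier of large neutral amino acids, had EBSS changes of 0.73 in WT and -0.03 in Vps15KO (the latter not called), and the glutamine carrier Slc38a1 of 0.63 and 0.15 (the latter not called). In the other direction, Slc3a2, the heavy chain that pairs with several amino acid carriers, was amplified. It had 5881, 6624 and 5837 normalized counts in WT basal and 7181, 6563 and 8343 in WT EBSS libraries, which overlapped, and 8955, 8548 and 7819 in Vps15KO basal and 19713, 18472 and 20033 in Vps15KO EBSS libraries. The Vps15KO media did not overlap (interaction 0.94 ± 0.11, adjusted p = 2.07e-05). Of 28 ATF4 and CHOP targets, 8 were called higher and 2 lower (35.7%, median 0.15). Already in basal medium 24 of the 28 were higher in Vps15KO (background 29.3%). Sesn2, a leucine sensor that restrains mTORC1, rose by 0.75 in WT and 1.78 in Vps15KO, and Ppp1r15a, which promotes dephosphorylation of eIF2 alpha, rose by 0.40 and 1.29. For Ddit4, an mTORC1 inhibitor, the change was 0.31 in WT and -0.28 in Vps15KO. Of 20 cytosolic tRNA synthetase genes only Vars was called (0.37, and 0.24 without the 2 libraries that stand apart), and 3 were without those libraries. In basal medium 18 of the 20 were higher in Vps15KO (background 29.3%).

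The lysosome, autophagy and endosome lists held shares of called members from 12.5% to 37.5%, against 17.8% of all genes. Of 15 V-ATPase subunits, which acidify lysosomes, 5 were called lower and none higher (33.3%). Atp6v1b2 had 2194, 2195 and 2339 normalized counts in WT basal and 4534, 4379 and 4119 in WT EBSS libraries, and 5039, 5048 and 5111 in Vps15KO basal and 5978, 5418 and 5523 in Vps15KO EBSS libraries. The Vps15KO basal level lay above every WT library (interaction -0.79 ± 0.08, adjusted p = 4.49e-06). In the folliculin, Rag and MiT/TFE list, 2 of 16 were higher and 4 lower (37.5%). Fnip2, a partner of folliculin and a MiT/TFE target, went from 1451, 1339 and 1368 to 9017, 9763 and 8689 normalized counts in WT and from 4010.4, 3880.3 and 4056 to 12105, 11384 and 10533 in Vps15KO (interaction -1.20 ± 0.09), while folliculin itself (Flcn) rose by 1.31 and 1.72. Of 28 lysosomal hydrolases and membrane proteins, 1 was higher and 6 lower (25%). Of 32 autophagy genes, 4 were called lower (12.5%, under the 17.8% of all genes), and 7 were called without the 2 libraries that stand apart. They were Sqstm1, Ulk1, Atg13 and Atg12. The latter pair had adjusted p values of 0.0428 and 0.0492, and were no longer called when the replicate number was added as a block. Among 10 genes of the class 3 PI3K complexes, Rubcn, an inhibitor of the complex (-0.75 in WT, -0.24 in Vps15KO), and Ambra1 (-0.15 and 0.22) were called, both higher in the interaction (20%). Of 30 endosome, retromer and ESCRT genes, 1 was higher and 4 lower (16.7%), a share near that of all genes, and 9 were called without the 2 libraries.

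**Figure D2:**
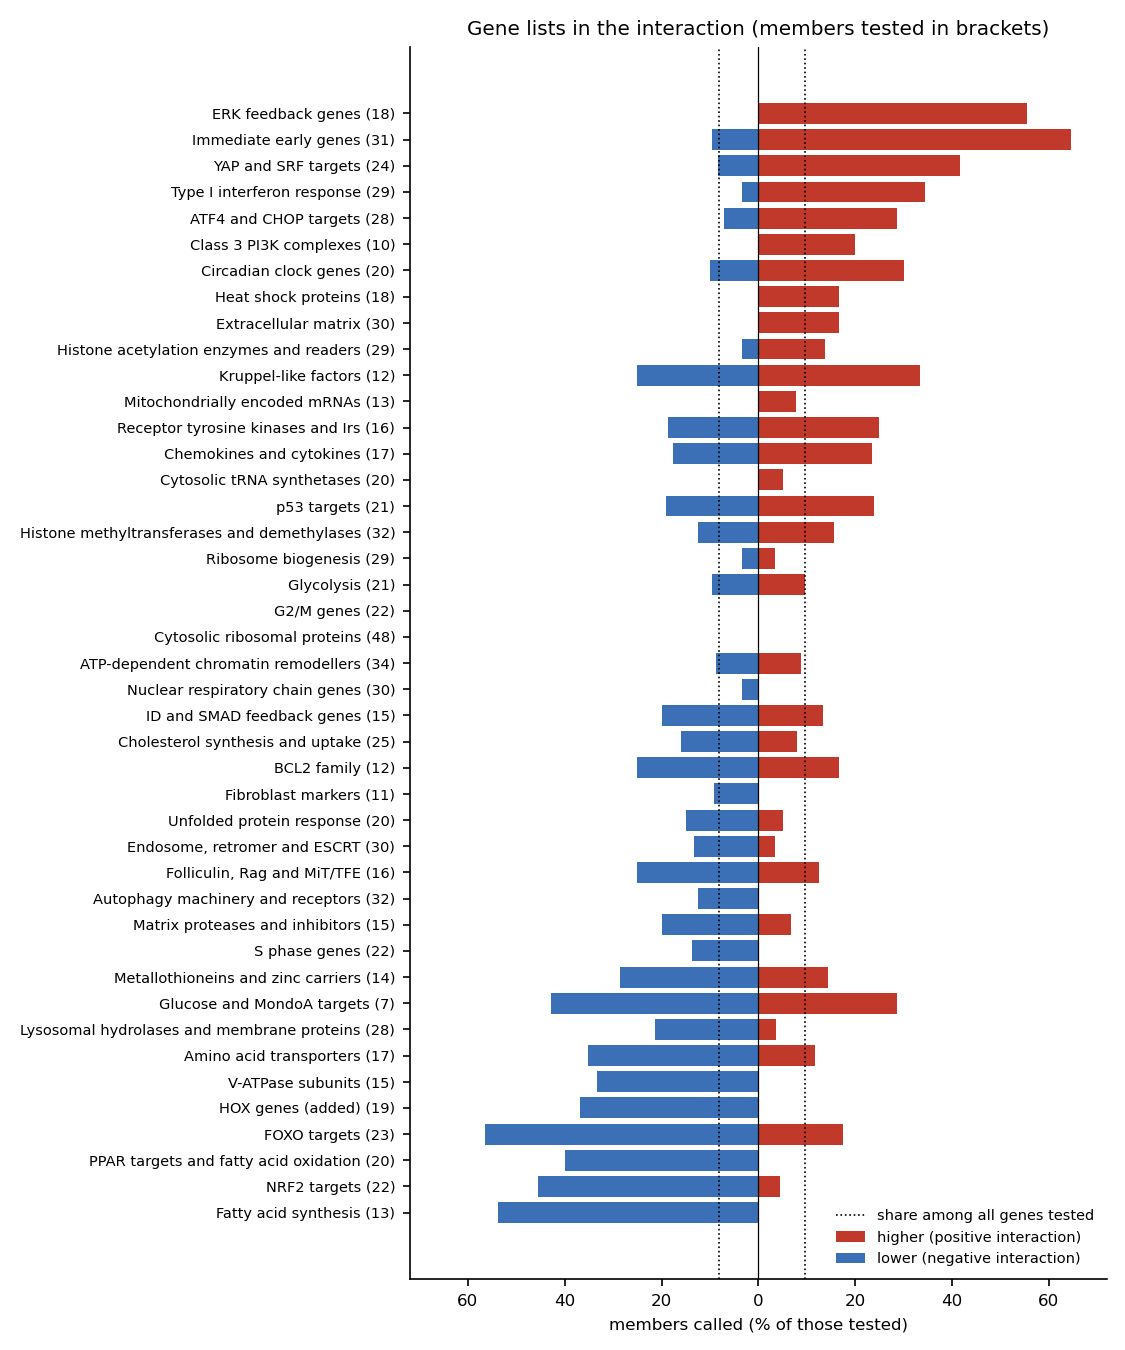
Share of each list's tested members called in the interaction (horizontal axis, %), higher to the right in red and lower to the left in blue, with dotted lines at the shares of all genes tested (9.55% and 8.24%). ERK feedback and immediate early genes stand at the top with 10 of 18 and 20 of 31 members higher, fatty acid synthesis and NRF2 targets at the bottom with 7 of 13 and 10 of 22 lower, and cytosolic ribosomal proteins and G2/M genes have none.

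Blunted falls were led by Carmn, a long noncoding RNA gene of mesoderm and smooth muscle. It had 468, 598 and 493 normalized counts in WT basal and 97.6, 118 and 162 in WT EBSS libraries, and 169, 185 and 167 in Vps15KO basal and 178, 205 and 262 in Vps15KO EBSS libraries. EBSS brought every WT library below the Vps15KO basal libraries, and in Vps15KO the media overlapped (interaction 2.11 ± 0.20, adjusted p = 1.23e-06). The gene span of Carmn overlaps that of the noncoding RNA Bvht, which was called as reversed, and reads of the pair may not have been told apart. Btg2, an antiproliferative immediate early gene, had 647, 529 and 612 in WT basal and 161, 185 and 164 in WT EBSS libraries, and 251, 240.1 and 263 in Vps15KO basal and 262, 272 and 304 in Vps15KO EBSS libraries. It had EBSS changes of -1.66 in WT and 0.14 in Vps15KO (the latter not called, interaction 1.79 ± 0.13).

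Trim46, known for its role at the axon initial segment, was slightly lower in Vps15KO in basal medium (-0.21, no overlap). Its normalized counts were 929, 1071 and 977 in WT basal and 264, 262 and 278 in WT EBSS libraries, and 823, 906 and 834 in Vps15KO basal and 788, 754 and 822 in Vps15KO EBSS libraries. After EBSS every Vps15KO library was above every WT library (interaction 1.67 ± 0.10, adjusted p = 6.01e-09). Its span overlaps that of Krtcap2, a gene with more reads and an interaction of 0.27. Lbh, a developmental transcription regulator, had EBSS changes of -2.69 in WT and -1.10 in Vps15KO, and Ankrd34a of -2.31 and -0.91. The clock repressor Per1 had 1466, 1574 and 1334 in WT basal, 412, 549 and 552 in WT EBSS, 1217, 1347 and 1418 in Vps15KO basal and 1075, 1229.8 and 1337 in Vps15KO EBSS libraries. Its genotypes overlapped in basal medium and did not in EBSS (interaction 1.36 ± 0.14).

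Genes that restrain ERK or other MAP kinase signaling were called in one direction. Of 18 ERK feedback genes, 10 were called higher in the interaction and none lower (55.6% called, median 0.50), of which 4 were blunted falls and 5 were reversed. Spry4, an inhibitor of receptor tyrosine kinase signaling, had 747, 722 and 743 normalized counts in WT basal and 205, 230.0 and 203 in WT EBSS libraries, and 433, 464 and 377 in Vps15KO basal and 356, 342 and 344 in Vps15KO EBSS libraries. It had EBSS changes of -1.67 in WT and -0.26 in Vps15KO (interaction 1.41 ± 0.11, adjusted p = 1.76e-07). The ERK phosphatase Dusp6 had EBSS changes of -0.65 and 0.20 (the latter not called). Genes of the list that were not called included Spry1, Spred1, Spred2 and Dusp10.

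Targets of YAP and SRF, which respond to adhesion, actin and serum, leaned the same way. Of 24 tested, 10 were called higher and 2 lower (50%, against 17.8% of all genes, median 0.30). Ccn1 had EBSS changes of -1.61 in WT and -0.46 in Vps15KO, Ccn2 of -0.65 and 0.19 (the latter not called), and the actin gene Actb of -0.63 and -0.15 (the latter not called). Ankrd1 was reversed (-0.30 in WT, 0.61 in Vps15KO), and Wwtr1, which encodes the coactivator TAZ, was a blunted rise (1.12 and 0.46). Of 29 type I interferon response genes, 10 were called higher and 1 lower (37.9%, against 17.8% of all genes, median 0.29). Without the 2 libraries that stand apart, 17 were called. Mx2, an antiviral GTPase, had 268, 354 and 325 normalized counts in WT basal and 348, 269.7 and 215 in WT EBSS libraries, which overlapped, and 394, 491 and 371 in Vps15KO basal and 848, 939.9 and 874 in Vps15KO EBSS libraries (interaction 1.23 ± 0.19, adjusted p = 1.96e-04). Isg15 had EBSS changes of -0.79 in WT and -0.06 in Vps15KO (the latter not called). The interferon list was already higher in Vps15KO in basal medium for 23 of 29 genes (background 29.3%).

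The reversed class held 102 genes that fell in WT and rose in Vps15KO, and 73 with the opposite pattern. The largest interaction among its named genes was that of Nr4a1, an orphan nuclear receptor and immediate early gene (chr15:101253902-101274795, mm10). Its promoter is shown because CREB acts through this kind of sequence and the printed window holds 4 copies of the half-element TGACG, in capitals, read on either strand (CGTCA on the strand shown). The window runs from 250 bases before to 50 after a start that RefSeq lists within the gene (GRCm38.p6, chr15:101266596-101266895, plus strand).
Nr4a1: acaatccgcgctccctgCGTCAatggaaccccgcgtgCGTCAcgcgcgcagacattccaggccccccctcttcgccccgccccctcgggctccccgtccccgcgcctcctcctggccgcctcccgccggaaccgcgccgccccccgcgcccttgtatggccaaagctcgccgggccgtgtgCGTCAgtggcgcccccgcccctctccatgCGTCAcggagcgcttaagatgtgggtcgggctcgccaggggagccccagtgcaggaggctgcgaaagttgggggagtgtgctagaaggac
Of 24 immediate early genes with a promoter entry, 14 held the half-element (58.3%). It was in 31.2% of the 10879 promoters of genes tested and 32.9% of 79 promoters of reversed rises. The half-element was not alone in this: the metal response element was in 50% of the 24, against 35.6% of all. AP-1 sites (TGACTCA) were in 0% and 3.83%.

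Normalized counts of Nr4a1 were 3033, 3034 and 2966 in WT basal and 1774, 1653 and 2039.9 in WT EBSS libraries. They were 2127, 1863 and 1868 in Vps15KO basal and 5622, 6215 and 7298 in Vps15KO EBSS libraries. EBSS took every WT library below the WT basal range and every Vps15KO library above all others. The change was -0.72 in WT and 1.69 in Vps15KO (interaction 2.41 ± 0.12, adjusted p = 8.83e-10). Egr1, an immediate early zinc finger factor, had 2162, 1747 and 2074 in WT basal, 1319, 1395 and 1509.8 in WT EBSS, 1764, 1539.8 and 1660.1 in Vps15KO basal and 5369, 5504 and 6672 in Vps15KO EBSS libraries. Its genotypes overlapped in basal medium, and in EBSS the lowest Vps15KO library was above every other library (interaction 2.29 ± 0.13, adjusted p = 1.89e-09).

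The immediate early list as a whole had 20 of 31 members called higher and 3 lower (74.2% called, median 0.60). By class, 5 were reversed rises, 9 amplified rises and 4 gained rises. Fos had EBSS changes of -0.47 in WT and 0.84 in Vps15KO, Fosb of -0.48 and 0.85, and Ier2 of -0.43 and 0.79. Junb and Fosl1 were gained, at 0.84 and 0.85 in Vps15KO. Egr2, Egr3 and Nr4a3 rose in both genotypes and further in Vps15KO, with interactions of 1.31, 1.06 and 1.11. The exceptions were Jun and Btg1, which were blunted rises, and Klf2, a gained fall (-0.06 in WT, -0.62 in Vps15KO). Atf3, Klf4, Klf6, Ier3, Fosl2, Jund, Zfp36 and Zfp36l1 were not called.

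Other reversed rises included phosphatases of MAP kinases. Dusp8 had 205, 168 and 139 normalized counts in WT basal and 74.5, 88.5 and 90.7 in WT EBSS libraries, and 161, 181 and 190.2 in Vps15KO basal and 265, 282 and 347 in Vps15KO EBSS libraries. In EBSS all Vps15KO libraries were above all WT libraries, and in basal medium they overlapped (interaction 1.49 ± 0.17, adjusted p = 1.27e-05). Dusp1 had EBSS changes of -0.92 in WT and 0.28 in Vps15KO, and Dusp16 of -0.82 and 0.28. Cnksr3, a scaffold of the connector enhancer of KSR family, had EBSS changes of -1.27 and 0.24, and the noncoding RNA Bvht of -1.39 and 0.36. Nfil3, a repressor of clock output genes, had EBSS changes of -1.20 and 0.27 (interaction 1.46 ± 0.11).

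**Figure D3:**
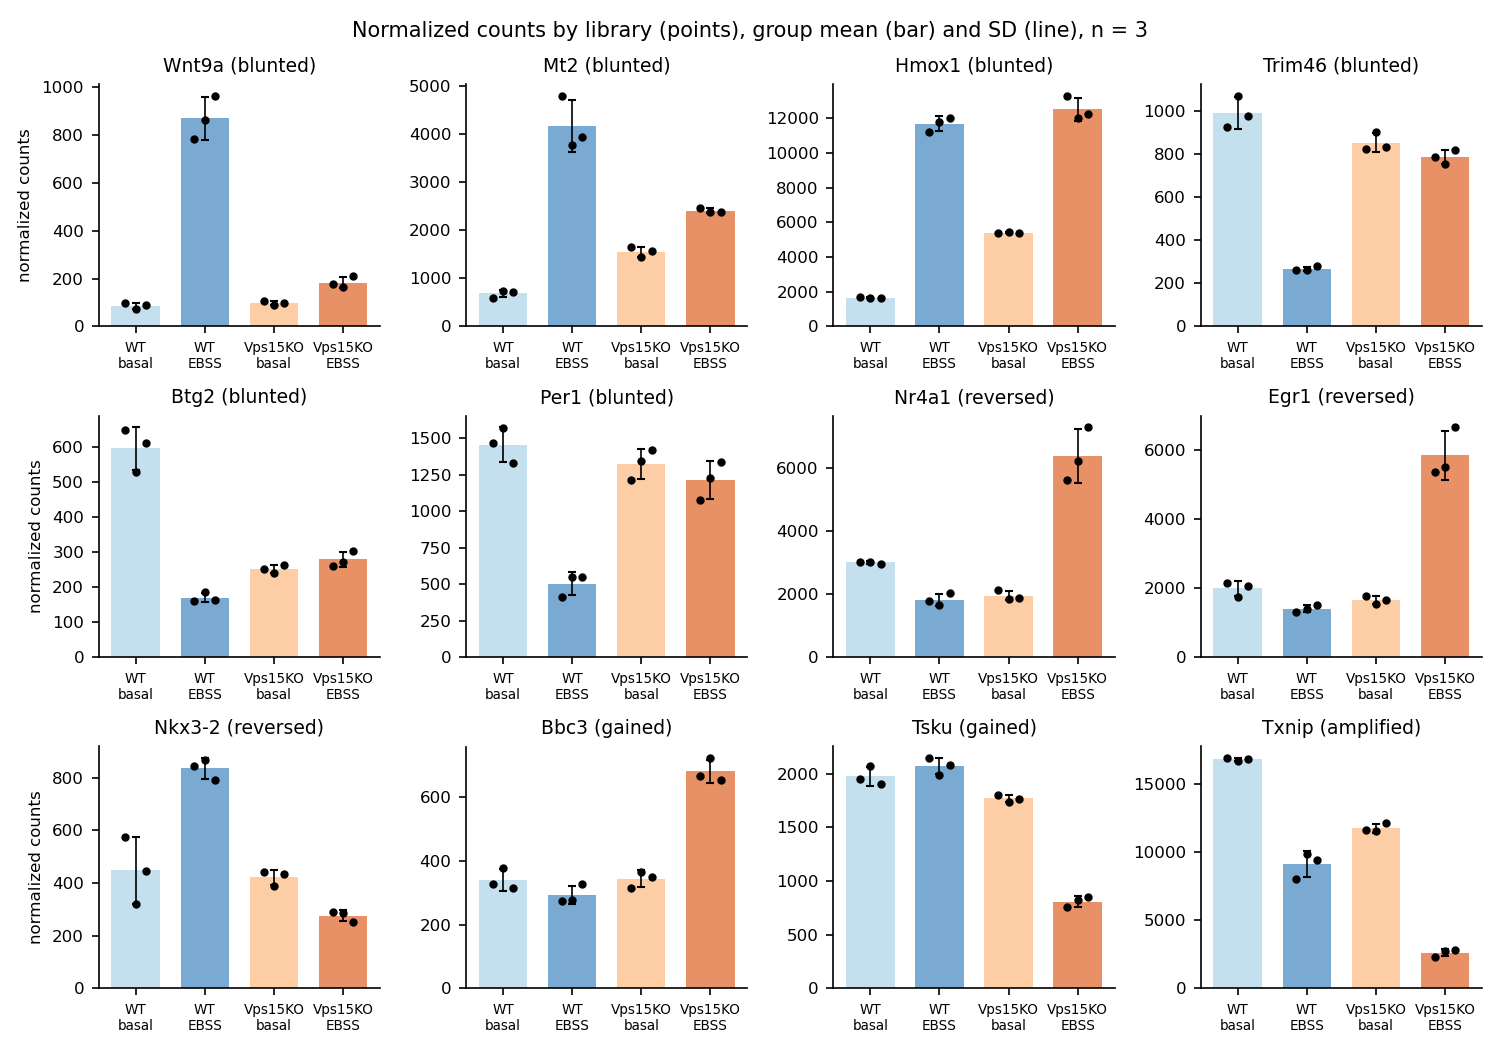
Normalized counts (vertical axes) of 12 genes by group (horizontal axes), with each library as a point, the group mean as a bar and the SD as a line (n = 3). Wnt9a and Mt2 rise with EBSS far more in WT than in Vps15KO, Trim46, Btg2 and Per1 fall with EBSS in WT and stay near their basal level in Vps15KO, and Nr4a1 and Egr1 fall in WT while rising in Vps15KO.

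The reversed falls described here by name are Evx2, Nkx3-2, Sox2 and Skida1. Evx2, a homeobox gene beside the Hoxd cluster, had 249, 125 and 213 normalized counts in WT basal and 428, 371 and 382 in WT EBSS libraries, and 191, 186 and 209.8 in Vps15KO basal and 158, 112 and 122 in Vps15KO EBSS libraries. In EBSS all Vps15KO libraries were below all WT libraries, and in basal medium they overlapped (interaction -1.47 ± 0.22, adjusted p = 1.98e-04). WT basal replicate 2 was the lowest of its group for Evx2, and the interaction was -1.16 without both libraries that stand apart. Nkx3-2, a homeobox repressor of cartilage development, had 576, 321 and 446 in WT basal, 845, 868 and 791 in WT EBSS, 442, 390.1 and 433 in Vps15KO basal and 289, 287 and 251 in Vps15KO EBSS libraries. The same library was lowest there, with an interaction of -1.46 ± 0.19 with all libraries and -1.25 without both. Sox2, a factor of stem and neural progenitor cells, had EBSS changes of 0.84 in WT and -0.27 in Vps15KO, and Skida1 of 0.46 and -0.68. Sox2 was also the only called member of the muscle and neural marker list, whose sum was 2693 to 3597 in WT and 1637 to 2117 in Vps15KO libraries.

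HOX genes, which set position along the body axis, were counted after Hoxa9 had been seen among the gained falls, so their selection is not independent of the values. Of 31 HOX genes listed, 19 were tested, and 7 were called lower in the interaction and none higher (36.8%, median -0.25). They were Hoxa9, Hoxa10, Hoxa11, Hoxa13, Hoxd8, Hoxd10 and Hoxd13. Hoxd10 was no longer called without the filter on low values or without the variance trend. Hoxa9 (start 52223097) to Hoxa13 (end 52260880) are neighbors on chromosome 6 (mm10). Hoxa9 had 848, 744 and 948 normalized counts in WT basal and 855, 828 and 864 in WT EBSS libraries, and 706, 788 and 885 in Vps15KO basal and 312, 348 and 364 in Vps15KO EBSS libraries. Only the Vps15KO EBSS libraries stood apart, below all others (interaction -1.16 ± 0.13, adjusted p = 8.21e-06). Hoxa10 had EBSS changes of 0.34 in WT and -0.72 in Vps15KO, Hoxa11 of 0.26 and -0.37, and Hoxa13 of 0.46 and -0.47. Hoxa11 overlaps Hoxa11os, whose interaction was 0.04, and Hoxd10 overlaps Hoxd11.

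**Figure D4:**
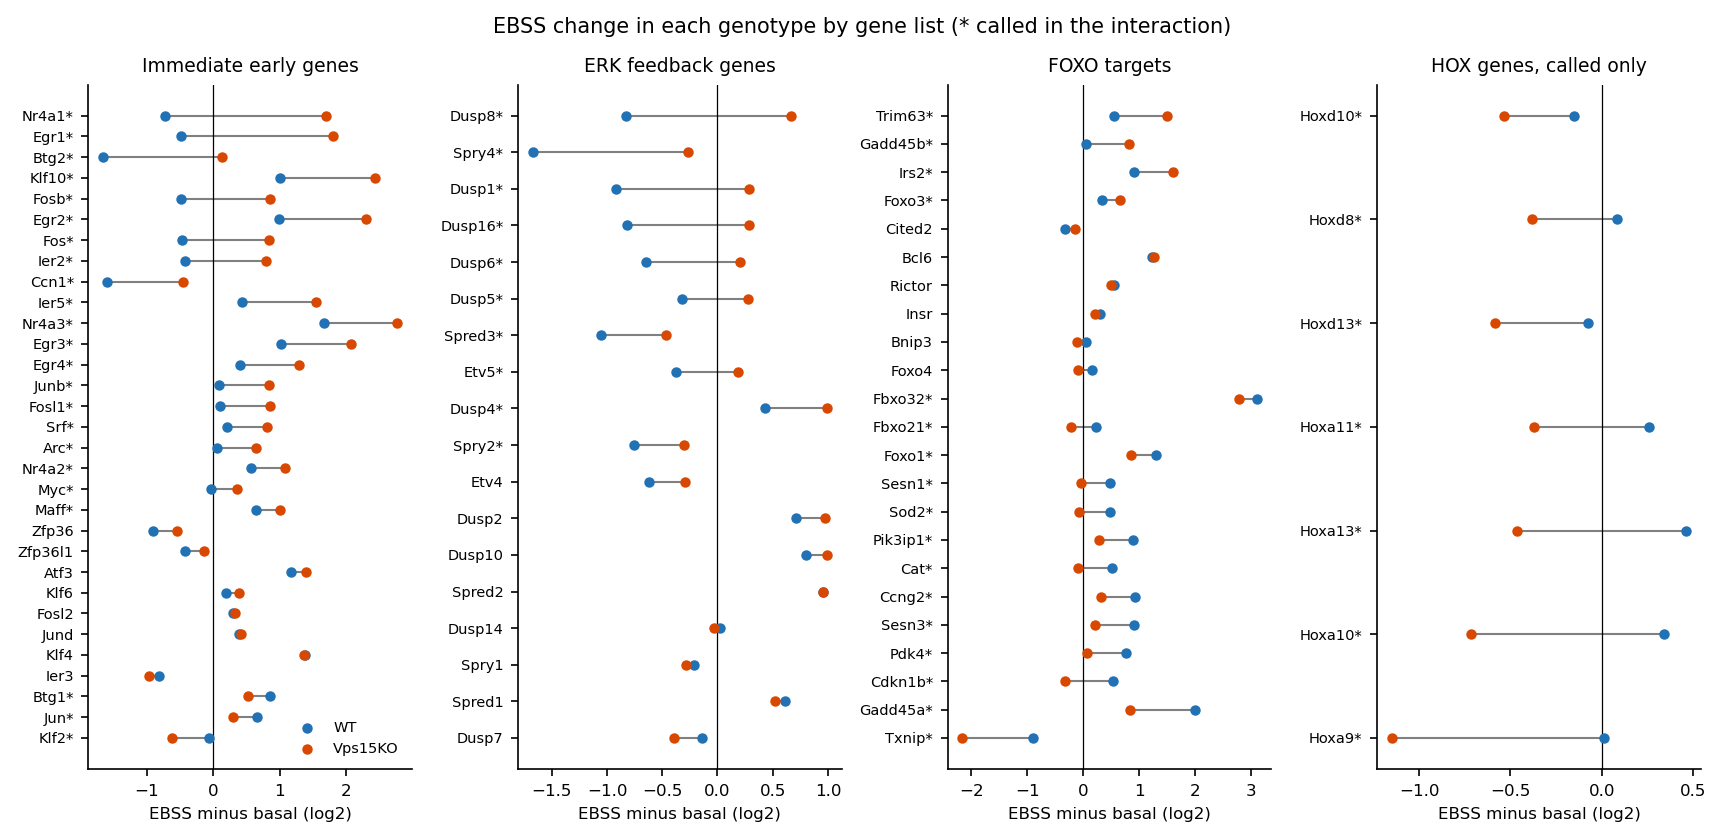
Change with EBSS (horizontal axis, log2) in WT (blue) and Vps15KO (orange) for each tested member of 3 gene lists and for the 7 called HOX genes, joined by a line within each gene and sorted by the interaction, with an asterisk for members called in the interaction. Most immediate early and ERK feedback genes have the Vps15KO point to the right of the WT point, most FOXO targets have it to the left, and the 7 HOX genes, shown because they were called, have it to the left.

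Gained changes were found for 212 rises and 172 falls. Snhg17, a host gene of small nucleolar RNAs, had 526, 553 and 553 normalized counts in WT basal and 539, 566 and 695 in WT EBSS libraries, and 569, 544 and 541 in Vps15KO basal and 1697, 1636 and 1840.2 in Vps15KO EBSS libraries. The first 3 groups overlapped in part, and every Vps15KO EBSS library was above all others (interaction 1.47 ± 0.11, adjusted p = 1.31e-07). Bbc3, which encodes the BH3-only protein PUMA, had 328, 379 and 315 in WT basal and 275, 277 and 327 in WT EBSS libraries, and 315, 367 and 350.1 in Vps15KO basal and 668, 723 and 654 in Vps15KO EBSS libraries. Here too only the Vps15KO EBSS libraries were high (interaction 1.13 ± 0.13, adjusted p = 8.35e-06). The survival factor Mcl1 was gained as well, with 0.73 in Vps15KO and 0.13 in WT.

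Not all gained rises ended above WT. Pygm, the muscle glycogen phosphorylase, had 131, 150.3 and 106 normalized counts in WT basal and 104, 109 and 84.6 in WT EBSS libraries, and 29.3, 26.5 and 36.3 in Vps15KO basal and 105, 79.9 and 121 in Vps15KO EBSS libraries. It was low in Vps15KO basal medium only, and the genotypes overlapped in EBSS (interaction 1.51 ± 0.19). Mob3c, of the MOB kinase activator family, had the same arrangement and had EBSS changes of 0.12 in WT and 1.30 in Vps15KO (the former not called). Celsr3, a cadherin with few reads, went from 21.5, 10.8 and 20.6 to 60.0, 49.3 and 72.1 in Vps15KO, with an interaction of 0.94 ± 0.20 on the deposited scale and 1.53 on that of log2 of the normalized count plus 1. Gadd45b, a relative of Gadd45a, was gained with 0.82 in Vps15KO and 0.06 in WT.

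Among gained falls, Tsku, a secreted leucine-rich repeat protein, had 1949, 2076 and 1909 normalized counts in WT basal and 2144, 1991 and 2079 in WT EBSS libraries, and 1806, 1741 and 1769.9 in Vps15KO basal and 754, 819.6 and 854 in Vps15KO EBSS libraries. The media overlapped in WT, and every Vps15KO EBSS library was below all others (interaction -1.17 ± 0.09, adjusted p = 8.22e-08). Foxc1, a forkhead factor of mesoderm, had EBSS changes of 0.20 in WT and -0.93 in Vps15KO (the former not called), and the zinc finger gene Zfp799 of -0.07 and -1.11 (the former not called). Lfng, a glycosyltransferase that tunes Notch receptors, fell from 40.0, 45.1 and 48.0 to 8.85, 7.89 and 14.8 in Vps15KO. Its interaction was -0.98 ± 0.18 on the deposited scale and -1.85 on that of log2 of the normalized count plus 1. Zfp genes as a group were close to the background, with 53 of 305 called (17.4%), a set counted after Zfp799 had been seen.

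Amplified changes were mostly rises, 216 against 47 falls. Plcxd2 went from 254, 192 and 245 to 320.0, 342 and 299 normalized counts in WT and from 235, 214 and 253 to 1291, 1097 and 1139 in Vps15KO. The genotypes overlapped in basal medium, and in EBSS every Vps15KO library was above every WT library (interaction 1.76 ± 0.14, adjusted p = 1.46e-07). Bhlhe40, a clock repressor, had 2628, 2378 and 2825 in WT basal and 3737, 4244 and 4656 in WT EBSS libraries, and 4642, 4173 and 4376 in Vps15KO basal and 21060, 22158 and 22604 in Vps15KO EBSS libraries. It was higher in Vps15KO in both media and the gap grew with EBSS (interaction 1.63 ± 0.11, adjusted p = 2.66e-08). Klf10, a TGF-beta inducible factor, had EBSS changes of 1.01 in WT and 2.44 in Vps15KO, and the Notch target Hes1 of 1.07 and 2.43.

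Ciart, a repressor of CLOCK and BMAL1, was amplified too. Its promoter is shown because it holds 3 copies of CACGTG, the E-box bound by CLOCK and BMAL1 and by MYC and MiT/TFE factors, in capitals. It reads the same on both strands (RefSeq, GRCm38.p6, chr3:95882179-95882478, minus strand).
Ciart: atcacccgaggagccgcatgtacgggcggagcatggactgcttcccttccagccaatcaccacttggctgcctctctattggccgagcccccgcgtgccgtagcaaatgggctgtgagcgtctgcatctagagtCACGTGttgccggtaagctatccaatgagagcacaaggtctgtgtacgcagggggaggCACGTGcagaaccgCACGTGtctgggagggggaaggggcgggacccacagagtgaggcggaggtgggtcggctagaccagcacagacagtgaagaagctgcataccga
The E-box was in 10.1% of the 10879 promoters of genes tested, in 17.1% of 175 promoters of amplified rises, 14.0% of 677 of blunted rises and 7.10% of 648 of blunted falls. Of 17 clock genes with a promoter entry, 5 held it. The E-box was not the only motif with a higher share among amplified rises. The antioxidant element (TGACNNNGC) was in 22.9% of them and 14.6% of all, while the metal response element was in 33.1% and 35.6%.

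Ciart had 67.1, 62.5 and 70.0 normalized counts in WT basal and 164, 155 and 177 in WT EBSS libraries, and 161, 180.3 and 172 in Vps15KO basal and 990.2, 996 and 1065 in Vps15KO EBSS libraries. WT cells in EBSS and Vps15KO cells in basal medium were at like levels, and the Vps15KO EBSS libraries were above all others (interaction 1.34 ± 0.12, adjusted p = 4.85e-07). Of 20 clock genes, 6 were called higher and 2 lower (40%). The higher ones were Ciart, Bhlhe40, Per1, Nfil3, Rora and Nr1d1, which rose by 1.45 in WT and 2.22 in Vps15KO. The lower ones were Hlf and Arntl, which encodes BMAL1 and rose by 1.56 and 1.06. Per2, Cry1, Dbp and Tef were not called.

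The amplified falls were led by Txnip, an inhibitor of thioredoxin and of glucose uptake. Normalized counts were 16896, 16713 and 16800 in WT basal and 8049, 9826 and 9438 in WT EBSS libraries, and 11580, 11530 and 12111 in Vps15KO basal and 2311, 2703 and 2844 in Vps15KO EBSS libraries. No groups overlapped, and the Vps15KO EBSS libraries were lowest (interaction -1.27 ± 0.11, adjusted p = 4.66e-07). Its relative Arrdc3 had EBSS changes of -0.24 in WT and -1.16 in Vps15KO, Zscan2 of -0.34 and -1.06, and Inafm2 of -0.28 and -0.98. For Arrdc3, Zscan2 and Inafm2 the WT media overlapped, with adjusted p values by limma of 0.0249, 0.0339 and 0.0133 for the WT fall. Of 7 genes of the glucose-sensing MondoA pathway, 2 were called higher and 3 lower (71.4%). The part of glucose in these changes was not tested. Arrdc4, a classical MondoA target, was not called (-1.09 in WT, -0.90 in Vps15KO), and Arrdc2 was a blunted rise, at 0.70 and -0.05 (the latter not called).

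Several gene groups held few or no called differences, or mostly a share of them near that of all genes. Of 48 cytosolic ribosomal protein genes, 47 fell with EBSS in each genotype (background 31.3% in WT and 26.1% in Vps15KO). Their median changes were -0.35 in WT and -0.31 in Vps15KO, and none was called in the interaction by limma. None reached an unadjusted p under 0.05, and voom on the worked-back reads called none. Among 22 G2/M genes none was called either, and all 22 were higher in Vps15KO in both media (background 29.3% in basal medium, 29.4% in EBSS). At an unadjusted p under 0.05 there was 1, with 0 by voom and 2 without the libraries that stand apart. Of 29 ribosome biogenesis genes 1 was higher and 1 lower (6.9%), and of 30 nuclear respiratory chain genes 1 was lower (3.33%). Chromatin regulators were called in both directions, with 6 of 34 ATP-dependent remodellers (17.6%) and 5 of 29 histone acetylation genes (17.2%) near the background and 9 of 32 histone methylation genes (28.1%) above it. Without the 2 libraries that stand apart, 11 remodellers, 6 ribosome biogenesis genes and 3 respiratory chain genes were called. Of 30 matrix genes 5 were called higher and none lower (16.7%, near the share of all genes). In basal medium 28 of the 30 were lower in Vps15KO (background 29.2%), and in EBSS 26 were (background 27.8%). Fibronectin (Fn1), a called member, had EBSS changes of -0.14 in WT and 0.34 in Vps15KO (the former not called).

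In a further set of lists, shares above the 17.8% of all genes went with calls in both directions. Of 12 Kruppel-like factors 4 were called higher and 3 lower (58.3%), and of 16 receptor tyrosine kinases and Irs genes 4 and 3 (43.8%). The split was 5 and 4 for 21 p53 targets (42.9%) and 4 and 3 for 17 chemokines and cytokines (41.2%). Among 15 ID and SMAD feedback genes, 2 were higher and 3 lower (33.3%). Id3, an inhibitor of basic helix-loop-helix factors and a BMP target, had EBSS changes of -1.02 in WT and 0.12 in Vps15KO (the latter not called). Among 15 matrix proteases and inhibitors 1 was higher and 3 lower (26.7%). The higher one, the protease gene Adamts1, had EBSS changes of -0.96 in WT and -0.00 in Vps15KO (the latter not called), and the inhibitor gene Timp3 had 0.60 and 0.04 (the latter not called). The lists that follow were near or under the share of all genes. Of 20 genes of the unfolded protein response 1 was higher and 3 lower (20%), with 8 called without the 2 libraries that stand apart. The higher one was Xbp1, a transcription factor of that response, with -0.82 in WT and 0.00 in Vps15KO (the latter not called). Of 18 heat shock genes 3 were higher and none lower (16.7%). Of 21 glycolysis genes 2 were called in each direction (19%), and of 13 mitochondrially encoded mRNAs 1 was higher (7.69%). Of 22 S phase genes 3 were lower (13.6%), with 6 called without those libraries.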

How the data were processed

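Poly-A RNA of 12 libraries was made into dUTP libraries and sequenced on a DNBSEQ-G400, per the labels' protocols. The submitters' processing notes list mm10 as the build, and as tools STAR 2.7.10b, limma, DESeq2 and featureCounts, with no roles. Strand use in counting is not given in the sources used here. The authors deposited log2 values of a variance-stabilizing transformation, for 32721 genes. Its lowest value, 3.83, stands for a count of 0. Inverting it gave whole reads (tolerance 0.001) for 100% of values, with size factors of 0.945 to 1.02. Normalized counts are these reads divided by the size factor. Log2 changes of genes with few reads understate ratios.

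Genes with a mean of at least 1 above the lowest value were fitted (14279) with limma 3.58.1 in R 4.3.3, a mean per group and a variance trend (8 residual and 10.2 prior degrees of freedom). Two-sided p values were adjusted per comparison (Benjamini-Hochberg) and genes called at adjusted p under 0.05. The labels do not say that replicates came from separate cultures, so p values measure the spread between these libraries, which may be technical.

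Members, the 46 gene lists and the alternatives were chosen with earlier results of these data known, and 2 more lists (HOX and Zfp genes) after the values were seen. Genes named are Pik3r4, the largest interactions of each class and direction (6 for blunted, 5 for gained, 4 for reversed and for amplified) with a group mean of at least 50 normalized counts, without predicted genes and pseudogenes, and members of the lists, mostly the called ones with the smallest p. Members that were not called and others beyond the first 4 of a list were chosen after their values were seen. Of the 171 genes that the rule gave, 40 overlap the span of another tested gene, so reads of the pair may not have been told apart.

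Promoters were the first RefSeq entry of a symbol, for 10879 of 14279 genes tested. The motifs searched on both strands were AP-1 (TGACTCA), the cAMP half-element (TGACG), the metal element (TGCACNC or TGCGCNC), the E-box (CACGTG), FOXO (TGTTTAC), the antioxidant element (TGACNNNGC), the D-box (TTANGTAA) and the CArG box. Data of 14279 genes were simulated with equal group means, except for 50 changed genes at each fold, none with few reads. Spread was averaged over genes of like level and shared by all libraries, so no library stood apart. The interaction test recovered 10% of genes changed 1.25-fold, 78% at 1.5-fold, 96% at 2-fold and 100% at 4-fold, with 6 false calls among 148. The real data differ from this setting, so these rates need not hold for them.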

Additional observations from a re-analysis of the deposited data

Results flagged for a closer look

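For 175 genes the EBSS change was called in both genotypes with opposite signs, and the difference itself was called in the interaction test. Of these, 102 fell in WT and rose in Vps15KO, and 73 rose in WT and fell in Vps15KO.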

How the results depend on the processing

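None of the 26 alternatives reversed a named gene. Counted over each gene and alternative, 344 results for named genes lost the call of the main fit and 4095 stayed the same. The stricter p and the size of at least 1 are among these alternatives. Vars and Hoxd10 were no longer called by limma without the filter (adjusted p = 0.087 and 0.052). The same held without the variance trend (0.090 and 0.052) and with some single libraries left out. Among called genes the sign changed for 1, when trends with transcript length and GC content were removed. At adjusted p under 0.01, 1227 genes were called (707 higher, 520 lower), 833 blunted, 182 gained, 74 reversed and 122 amplified, with 160 genes of the lists. At an interaction of at least 1, 118 were called (65 higher, 53 lower), 62 blunted, 11 gained, 26 reversed and 19 amplified, with 40 genes of the lists. Library weights gave the most calls, 3796 genes with 347 of the lists, among them 1805 lower, 696 gained, 294 reversed and 499 amplified genes. Leaving out both libraries that stand apart gave 656 gained and 406 amplified genes. With each library left out in turn, called genes numbered 1863 to 3175, higher 1023 to 1659, lower 832 to 1516, blunted 1217 to 1881, gained 262 to 618, reversed 131 to 244, amplified 184 to 403 and list members 199 to 303. The highest gained and amplified counts, 618 and 403, came without WT basal replicate 2. No filter gave 1896 calls, no variance trend 2117, voom on the worked-back reads 2488 and removal of length and GC trends 2897 of 13707 genes. The cause of these shifts was not tested.

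Replicate numbers were not used to pair the samples in the main fit. Whether same-numbered libraries of a medium belong together is not settled by the values below. Same-number correlations of deviations were -0.155 to -0.0418 between WT media, -0.0734 to 0.0125 between Vps15KO media, 0.0825 to 0.26 between genotypes in basal medium and 0.039 to 0.124 in EBSS. In EBSS each library correlated best with its own number in the other genotype, in basal medium not. The replicate block gave 2535 calls, 2428 of them shared with the fit without it, and among the named genes Atg13, Atg12, Canx and Bag3 were no longer called. A block within each medium, added after the data were seen, gave 3296.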
